A study of Mus musculus with 54 samples.

Results

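The effect of Rnaseh2b loss on cerebellar RNA was compared between adult and newborn mice. For each gene, the Rnaseh2b minus control value at postnatal day 5 (P5) was subtracted from the same value at 9 weeks, with each effect taken inside its own table of log2 CPM, the log of read counts scaled to the depth of each library. This comparison used 20 of the 54 libraries of the series and the 17329 genes held by both tables, of which 14292 reached 1 CPM often enough at both ages to be tested. All libraries came from whole cerebellum and were stranded total RNA libraries. At 9 weeks there were 7 libraries labelled Control and 7 labelled RnaseH2B Nes-cre. At P5 there were 3 of each. The labels do not say whether the controls carried Cre or which Rnaseh2b alleles were used, nor that each library is a separate animal. The p-values therefore reflect the spread among libraries, which may be technical. In the text below "difference" always means the 9-week effect minus the P5 effect, in log2 units, ± its standard error. A gene was called at a Benjamini-Hochberg adjusted p below 0.05 (limma), and "rose" and "fell" are kept for genes called at the age in question. For a difference, "limma" stands for a test of the gap between the coefficients of separate limma fits at each age. Most named genes were chosen by values of these same libraries. Statements that their groups were apart or overlapped are therefore descriptions.

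RNase H2 is a nuclear enzyme made of several subunits that removes ribonucleotides built into DNA and cuts RNA paired with DNA. The Nestin promoter directs Cre to neural progenitors, so neurons, astrocytes and oligodendrocytes of such mice are recombined while microglia, vessels, meninges and blood are mostly not. In mice P5 falls within the expansion of granule cell progenitors, whereas the adult cerebellum consists mainly of postmitotic granule neurons. Unrepaired ribonucleotides are known to cause DNA damage that can activate p53 and, through cytosolic nucleic acid sensors, interferon-stimulated genes.

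The Rnaseh2b transcript itself was reduced at both ages, and by more at P5. At 9 weeks the 7 controls ran from 3.33 to 3.72 log2 CPM with a median of 3.39, and the 7 Rnaseh2b libraries from 2.15 to 2.78 with a median of 2.55. At P5 the controls were at 4.61, 3.76 and 4.45 and the Rnaseh2b libraries at 1.87, 2.12 and 2.03. No Rnaseh2b library overlapped the controls at either age. The fall was −1.02 ± 0.10 at 9 weeks (limma, adjusted p = 8.75e-05) and −2.27 ± 0.22 at P5 (limma, adjusted p = 0.000251). The difference of 1.25 ± 0.25 had a 95% interval from 0.74 to 1.76 (limma, adjusted p = 0.0162). Without P5 Rnaseh2b 3 the difference was 1.27 and missed the threshold (limma, adjusted p = 0.0594). In whole tissue, fewer cells of a type and less RNA per cell cannot be told apart. The partner subunits were not called at either age. Rnaseh2a, the catalytic subunit, had a difference of −0.06 ± 0.12 (95% interval −0.31 to 0.19), and Rnaseh2c one of −0.26 ± 0.21 (−0.69 to 0.17).

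Across the transcriptome, 166 genes had a called difference, which was 1.16% of those tested. The difference was positive for 109 genes (0.763%) and negative for 57 (0.399%). Without adjustment, 1982 genes were at p below 0.05. At 9 weeks 1301 genes rose (9.1%) and 1122 fell (7.85%), and at P5 29 rose (0.203%) and 33 fell (0.231%). The median standard error of an effect was 0.0772 at 9 weeks and 0.119 at P5, so P5 with its 3 libraries a group carried a median of 67.8% of the variance of the difference. Of the 2423 genes called at 9 weeks (17%), 121 (4.99%) had a called difference, and for the other 2302 the effect at P5 was not shown to be unlike the one at 9 weeks. Of the 62 genes called at P5 (0.434%), 27 (43.5%) had a called difference. Most of these 27 were gene models or pseudogenes, 16 with a positive and 3 with a negative difference, whose values are uncertain. The 2 effects had opposite signs for 153 of the 166 genes. Choosing genes by a large difference favours opposite signs, so this count is a description. Among the 166, 2 were called at both ages, Myl1 with opposite signs and Rnaseh2b with the same sign. Across all genes the correlation of both effects was Pearson r = 0.03 and Spearman rho = 0.17, as a description over genes that are not independent.

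**Figure D1:**
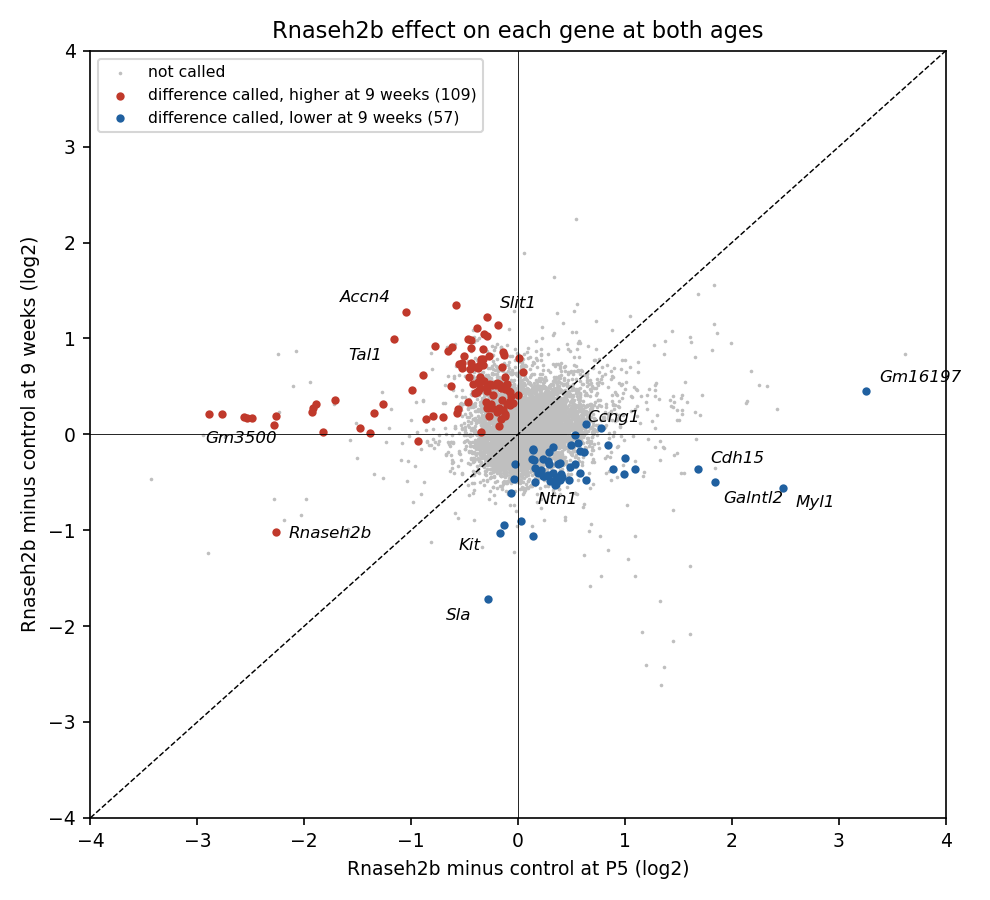
The Rnaseh2b minus control effect of each tested gene at P5 (x axis, log2) and at 9 weeks (y axis, log2), with the 109 called positive differences in red and the 57 called negative ones in blue. The dashed line marks equal effects. Red genes sit mostly left of 0 and above it, blue genes mostly right of 0 and below it, and Rnaseh2b lies low on both axes. 8 genes beyond 4 log2 on an axis, none of them called, are not drawn.

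The genes called at both ages were few. They numbered 12, or 0.495% of the 9-week calls and 19.4% of the P5 calls, and 11 of them went the same way. Besides Rnaseh2b, Arpc1b, Cdh20, Frmd8 and Sh3pxd2a rose at both ages, and Capn7 and Csnk1g3 fell at both. The other four with the same direction included Gbp7, an interferon-induced GTPase that rose by 0.60 at 9 weeks and 0.65 at P5, and Herc6, an interferon-induced ubiquitin ligase that rose by 0.47 and 0.995. Trhde, an enzyme that degrades thyrotropin-releasing hormone, fell by 0.51 and 0.43, and Elavl4, a neuronal RNA-binding protein, fell by 0.15 and 0.37. Of these 11 genes, Rnaseh2b alone had a called difference. The overlap rests on the 62 P5 calls, which numbered 1 without P5 control 2 or without P5 Rnaseh2b 3, and 0 by limma with only both groups in the P5 fit (769 genes at unadjusted p below 0.05). The one gene called in opposite directions was Myl1, described with the muscle genes.

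Named genes that fell at 9 weeks, were not called at P5 and had a called difference included Sla, Kit, Ntn1, Prkcd and Adamts15. Asgr1, a glycoprotein receptor, fell by 1.18 at 9 weeks, but its difference of −0.84 ± 0.30 was not called (limma, adjusted p = 0.186). Sla, which encodes an adaptor that dampens signalling by receptor-linked kinases, ran from 4.28 to 4.99 log2 CPM in 9-week controls (median 4.76) and from 2.70 to 3.36 in Rnaseh2b libraries (median 2.99). The P5 values were 2.88, 2.91 and 3.19 in controls and 2.62, 2.74 and 2.77 in Rnaseh2b. The groups did not overlap at either age, but the gap was far wider at 9 weeks. Its effect was −1.71 ± 0.12 at 9 weeks (limma, adjusted p = 1.7e-06) and −0.29 ± 0.17 at P5, which was not called. The difference of −1.43 ± 0.21 (limma, adjusted p = 0.00089) was called in all 40 alternative settings. At P28, in poly-A libraries of an age between, the Sla effect was −0.94.

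Kit, the receptor tyrosine kinase of molecular layer interneurons, ran from 6.72 to 7.38 log2 CPM in 9-week controls (median 7.18) and from 5.78 to 6.31 in Rnaseh2b (median 6.07). P5 libraries gave 6.21, 5.85 and 6.16 in controls and 6.01, 5.85 and 5.85 in Rnaseh2b. The adult groups were apart and the P5 groups overlapped. The difference was −0.86 ± 0.14 (limma, adjusted p = 0.00369), from effects of −1.03 ± 0.11 and −0.17 ± 0.09. Of 16 tested interneuron genes, 1 had a called negative difference (0.399% of all genes) and 1 a positive one (0.763%). At 9 weeks 3 of them rose (9.1% of all genes) and 5 fell (7.85%). Kit was the one with the negative difference. Lhx5, a transcription factor of developing cerebellar inhibitory neurons, was the one with a called positive difference, of 0.83 ± 0.19 (limma, adjusted p = 0.023), from effects of 0.26 ± 0.13 at 9 weeks and −0.56 ± 0.14 at P5, neither of which was called. Without P5 Rnaseh2b 2 it was 0.66 (limma, adjusted p = 0.0748) and without P5 Rnaseh2b 3 it was 0.91 (0.0501). Over those 16 genes the median difference was 0.16, against −0.01 over all genes tested.

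Ntn1, the guidance ligand netrin-1, ran from 5.51 to 6.03 log2 CPM in 9-week controls (median 5.56) and from 4.34 to 4.93 in Rnaseh2b (median 4.88). Its P5 values were 5.85, 6.11 and 5.94 in controls and 5.70, 6.07 and 6.21 in Rnaseh2b. Only the adult groups were apart. The difference was −0.93 ± 0.17 (limma, adjusted p = 0.00682). It was −0.82 without P5 Rnaseh2b 3, where it missed the threshold (limma, adjusted p = 0.0525). Other secreted guidance ligands went different ways. Slit1 rose by 1.23 ± 0.19 at 9 weeks and had an effect of −0.29 ± 0.33 at P5, a difference of 1.52 ± 0.38 (limma, adjusted p = 0.0481). Slit3 had effects of −0.11 ± 0.11 and 0.84 ± 0.21, neither called, and a difference of −0.95 ± 0.24 (limma, adjusted p = 0.0488). Their receptors Robo1 and Robo2, picked after their values were seen, had differences of 0.74 and 0.83 (limma, adjusted p = 0.0348 and 0.00878), while Slit2 had 0.07 and Dcc, a netrin receptor, 0.52, neither called. The Slit1 and Slit3 calls each held in 7 of 20 fits that left out 1 library, with values from 1.15 to 1.86 and from −1.16 to −0.80 (highest limma adjusted p = 0.227 and 0.236). The Slit1 call was also lost with the P5 replicate number as a block (limma, adjusted p = 0.0528).

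Prkcd, a protein kinase C, ran from 5.40 to 6.03 log2 CPM in 9-week controls (median 5.77) and from 5.03 to 5.41 in Rnaseh2b (median 5.18). P5 levels were 3.31, 3.27 and 3.37 in controls and 3.60, 3.84 and 3.55 in Rnaseh2b. Adult Rnaseh2b libraries were thus lower with ranges that touched, and P5 Rnaseh2b libraries were higher with ranges apart. The effects were −0.53 ± 0.10, called, and 0.35 ± 0.12, not called, and the difference was −0.88 ± 0.15 (limma, adjusted p = 0.00627). Adamts15, a secreted metalloprotease, fell by 0.95 at 9 weeks and had an effect of −0.13 ± 0.15 at P5. Its difference of −0.82 ± 0.18 (limma, adjusted p = 0.0209) ranged from −0.97 to −0.73 when single libraries were left out and missed the threshold in 3 of 20 such fits (without P5 control 3, P5 Rnaseh2b 1 or P5 Rnaseh2b 2; highest limma adjusted p = 0.0601).

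**Figure D2:**
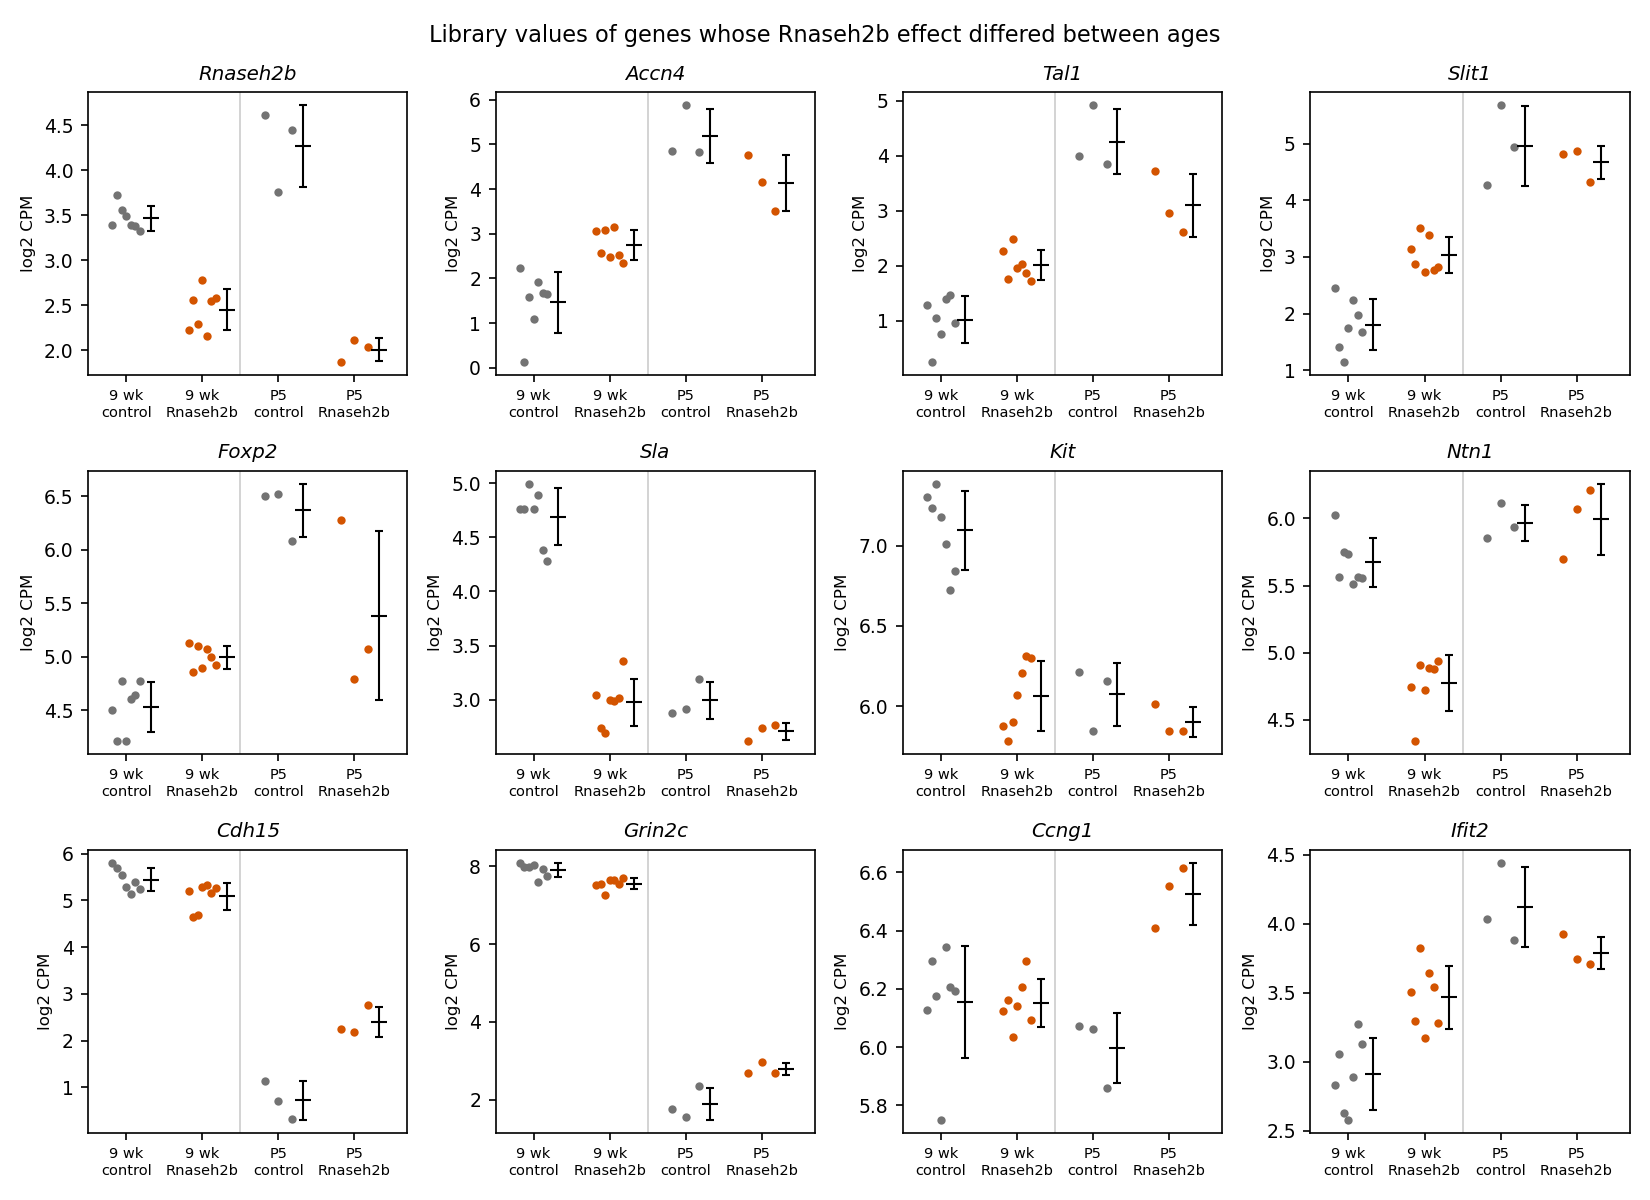
Log2 CPM (y axis) of 12 genes in every 9-week and P5 library, control in grey and Rnaseh2b in orange, with the group mean and SD beside the points. Sla, Kit and Ntn1 separate only or mainly at 9 weeks, Cdh15 and Ccng1 at P5, and Rnaseh2b at both ages. Tables of the 2 ages were normalised separately, so levels are compared within an age.

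Cdh15 had the second of the 2 differences called in all 40 alternative settings. It encodes M-cadherin, an adhesion protein of muscle and of cerebellar granule neurons. Its level was 1.15, 0.70 and 0.32 log2 CPM in P5 controls and 2.25, 2.20 and 2.77 in P5 Rnaseh2b, which did not overlap. At 9 weeks it ran from 5.15 to 5.80 in controls (median 5.40) and from 4.66 to 5.32 in Rnaseh2b (median 5.21), which overlapped. It rose by 1.68 ± 0.24 at P5 (limma, adjusted p = 0.0142) and had an effect of −0.36 ± 0.13 at 9 weeks, not called. The difference of −2.04 ± 0.27 (limma, adjusted p = 0.00089) was called in all 40 alternative settings, from −2.51 to −1.18.

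Myl1, a light chain of fast muscle myosin, was −1.13, −1.53 and −2.32 log2 CPM in P5 controls and 0.70, 0.46 and 1.29 in P5 Rnaseh2b. At 9 weeks it ran from 0.17 to 0.72 in controls (median 0.35) and from −0.52 to 0.40 in Rnaseh2b (median −0.13). The groups were apart at P5 and overlapped at 9 weeks. Myl1 rose at P5 and fell at 9 weeks, with a difference of −3.04 ± 0.53 (limma, adjusted p = 0.00878); without P5 Rnaseh2b 3 it was −2.81 and missed the threshold (limma, adjusted p = 0.055). Among the 6 compared P5 libraries only the 3 Rnaseh2b ones reached 1 CPM, the level of the filter. The filter asked for 3 libraries of any P5 group, so these 3 sufficed. A P5 difference may thus be built into its passing there. On FPKM plus 1 the difference was −1.13. Of the skeletal muscle list 4 of 15 members were tested. Cdh15 and Myl1 had called negative differences (0.399% of all genes), and Tnni1 and Acta1 were not called. Over the members held by both tables, tested or not, the mean level was −0.15, −0.25 and −0.16 log2 CPM in P5 controls and 1.598, 1.44 and 2.11 in P5 Rnaseh2b. Myh3, the embryonic myosin heavy chain, ran from −0.20 to 1.02 in P5 controls and from 3.37 to 4.25 in P5 Rnaseh2b. Muscle RNA thus moved with the P5 groups, and its part in the Cdh15 and Myl1 results was not tested.

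Grin2c, the NMDA receptor subunit of mature granule neurons, was 1.76, 1.56 and 2.36 log2 CPM in P5 controls and 2.69, 2.96 and 2.69 in P5 Rnaseh2b. At 9 weeks it ran from 7.59 to 8.09 in controls (median 7.99) and from 7.26 to 7.71 in Rnaseh2b (median 7.54). The groups were apart at P5 and overlapped at 9 weeks. It fell by 0.36 at 9 weeks and had an uncalled effect of 0.89 ± 0.22 at P5, a difference of −1.25 ± 0.24 (limma, adjusted p = 0.0153). Without P5 control 2 the value was −1.08 (limma, adjusted p = 0.0698), without P5 Rnaseh2b 2 −1.16 (0.0509) and without P5 Rnaseh2b 3 −1.29 (0.055). In the granule neuron list 8 of 15 members fell at 9 weeks (7.85% of all genes), among them Gabra6 (−0.47), Fat2 (−0.50) and Slc17a7 (−0.38), none rose, and none was called at P5. Grin2c alone had a called difference (1.16% of all genes), and the list's median difference was −0.39. Its median effect was −0.31 at 9 weeks and 0.03 at P5. At P5 the mean level of the list was 4.61, 4.14 and 5.13 in controls and 4.61, 4.78 and 4.85 in Rnaseh2b, so the P5 groups overlapped.

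The other large negative differences came from genes of varied roles. Galntl2, a glycosyltransferase, was 2.40, 0.60 and 1.55 log2 CPM in P5 controls and 3.18, 3.34 and 3.54 in P5 Rnaseh2b. At 9 weeks it ran from 5.24 to 5.71 in controls (median 5.66) and from 4.49 to 5.70 in Rnaseh2b (median 5.05). The groups were apart at P5 and overlapped at 9 weeks, where it fell by 0.50. Its P5 effect of 1.84 ± 0.49 was not called, and its difference was −2.34 ± 0.51 (limma, adjusted p = 0.0298). Lamb1, a laminin chain of basement membranes, fell by 0.52 at 9 weeks and had a P5 effect of 0.36 ± 0.19. Emilin3, an extracellular matrix protein, had a difference of −1.41 ± 0.34 with neither effect called. Arhgef37, Gprc5c and Dnahc11 fell at 9 weeks and had differences of −1.11, −0.99 and −0.95, which were lost with the P5 replicate number as a block (limma, adjusted p = 0.0609, 0.0501 and 0.056). Of the 12 largest negative differences, 5 remained called without P5 control 2 and 3 without P5 Rnaseh2b 3.

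Leaving gene models aside, the largest positive difference was in Accn4. This gene encodes an acid-sensing ion channel subunit. It ran from 0.13 to 2.23 log2 CPM in 9-week controls (median 1.65) and from 2.33 to 3.15 in Rnaseh2b (median 2.57). At P5 it was 4.85, 5.88 and 4.82 in controls and 4.75, 4.16 and 3.51 in Rnaseh2b. The groups were apart at both ages, in opposite directions. Among all genes tested, 74 (0.518%) were apart at both ages, in either direction. Accn4 was picked for its large difference, so this separation is a description. It rose by 1.27 ± 0.26 at 9 weeks and had an uncalled effect of −1.05 ± 0.45 at P5, a difference of 2.32 ± 0.52 (limma, adjusted p = 0.0253).

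Tal1, a transcription factor of blood cells and of GABAergic neurons of the midbrain and spinal cord, ran from 0.25 to 1.47 log2 CPM in 9-week controls (median 1.06) and from 1.73 to 2.48 in Rnaseh2b (median 1.96). At P5 it was 4.003, 4.93 and 3.85 in controls and 3.72, 2.96 and 2.61 in Rnaseh2b. Again both ages were apart in opposite directions, which is a description as for Accn4. The P5 effect of Tal1 was −1.16 ± 0.46, not called, and its difference was 2.15 ± 0.50 (limma, adjusted p = 0.0355). Lmo3, a LIM-domain cofactor, rose by 0.87 at 9 weeks, had a P5 effect of −0.65 ± 0.30 and a difference of 1.52 ± 0.33. Cbln2, a synaptic organiser of the cerebellin family, rose by 0.91 and had a difference of 1.54 ± 0.37. Ngb, the neuronal globin, rose by 1.34 and had a difference of 1.93 ± 0.50. Ndst4 and Hs3st4, sulfotransferases that modify heparan sulfate, rose by 0.62 and 0.98 and had differences of 1.51 and 1.42. Camkv, a kinase-like protein of synapses, rose by 0.92, Fibcd1, a receptor that binds chitin, by 1.11, and Zfp92, a zinc finger protein, by 0.99.

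Foxp2, a transcription factor found in Purkinje cells and in many neurons outside the cerebellum, ran from 4.21 to 4.77 log2 CPM in 9-week controls (median 4.60) and from 4.86 to 5.13 in Rnaseh2b (median 4.99). P5 levels were 6.50, 6.52 and 6.09 in controls and 6.28, 4.80 and 5.07 in Rnaseh2b. The adult groups were apart and the P5 groups overlapped. The difference was 1.45 ± 0.34 (limma, adjusted p = 0.041). It was the 1 of 20 tested Purkinje cell genes with a called difference (1.16% of all genes), and the list's median difference was −0.22. Calls for Camkv, Ndst4 and Foxp2 were lost with the P5 replicate number as a block (limma, adjusted p = 0.0545, 0.0731 and 0.0688).

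How many of these calls held depended on the scale, on the libraries fitted and on which library was left out. On FPKM plus 0.1, on FPKM plus 1 and after quantile normalisation, 1, 0 and 3 of the 12 largest positive differences remained called. For the 12 largest negative ones these counts were 8, 9 and 7. Within codes AA50 to AA58 at 9 weeks 0 positive and 2 negative ones remained. With only both groups in the P5 fit 1 and 3 did. Of the 12 largest positive differences, 10, 1 and 5 remained called without P5 control 1, 2 and 3, and 9, 2 and 0 without P5 Rnaseh2b 1, 2 and 3. Leaving out single 9-week libraries kept between 3 (without control 2 or Rnaseh2b 3) and 12 of them. The Accn4 difference ran from 1.97 to 2.62 over the 20 fits that each left out 1 library and was called in 17 of them (highest limma adjusted p = 0.147). P5 control 2 was the highest of the 6 P5 libraries for 70 of the 85 genes with a positive difference that are not gene models (82.4%), against 31.2% of all genes tested. Since its value enters the difference, this share is a description. The midbrain list had 14 members, 9 of them in both tables. Its mean level ran from −0.15 to 0.90 log2 CPM in 9-week controls and from 0.94 to 1.77 in 9-week Rnaseh2b. At P5 it was 2.93, 3.12 and 2.68 in controls and 2.84, 1.58 and 1.69 in Rnaseh2b. The list was thus higher in adult Rnaseh2b libraries without overlap and lower in P5 Rnaseh2b 2 and 3. Pou4f1, Gata3, Pax7 and Sox14 were below 1 CPM in every 9-week control, and no member was below it in every 9-week Rnaseh2b library. Otx2, Barhl2 and Gata2 had medians of 3.81, 3.87 and 0.53 in 9-week controls and 3.64, 3.83 and 0.54 in Rnaseh2b. For En1 and Lef1 these were 1.05 and 2.3 against 1.58 and 2.54. Of the 5 tested members, 3 had a positive 9-week effect and 0 were called there. The summed level of the 9 genes overlapped at 9 weeks, at 5.04 to 5.40 against 5.15 to 5.72. With the list's level as a covariate at both ages, the 12 positive differences kept their sign and none was called, Accn4 at 0.41 (limma, adjusted p = 0.83). In that fit 7 genes were called in all, Rnaseh2b (1.87), Cdh15, Sla, Ntn1, Adamts15, Ppp2r3a and Slc24a3, and 8 genes at 9 weeks. Because the list separated the adult groups, its level and the genotype cannot be told apart at 9 weeks.

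**Figure D3:**
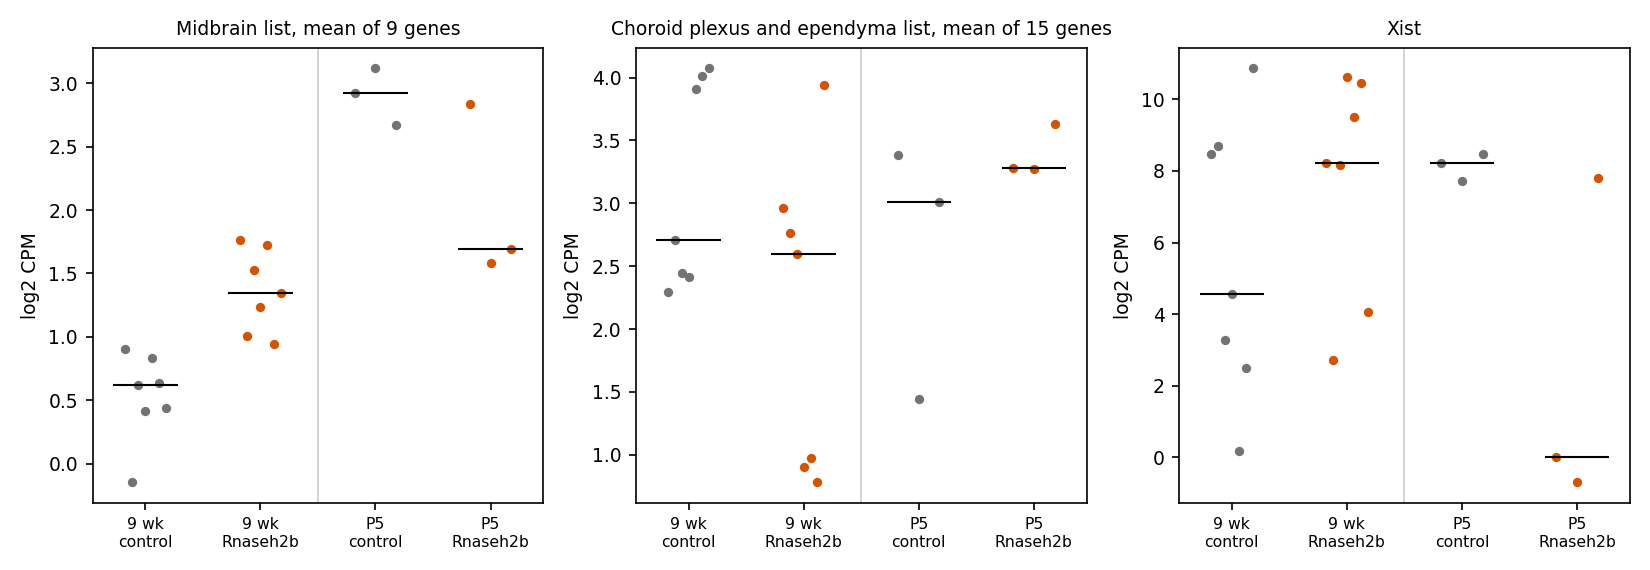
Log2 CPM by library of the midbrain list (mean of 9 genes), the choroid plexus and ependyma list (mean of 15 genes) and Xist, control in grey, Rnaseh2b in orange, with group medians as lines. The midbrain level is higher in all 7 adult Rnaseh2b libraries than in the 7 controls and lower in 2 of 3 P5 Rnaseh2b libraries than in the 3 controls.

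The called genes also differed in how their controls changed with age. Among genes that are not gene models, 79 of 85 positive differences (92.9%) belonged to genes whose log2 CPM was higher in P5 than in 9-week controls, against 43.3% of all genes tested. Of the negative ones, 45 of 52 (86.5%) were higher in 9-week controls, against 56.7% of all genes. Control values enter both quantities and the tables were normalised apart, so these shares are a description.

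Gene models are given apart. Of the 109 positive differences, 24 belonged to gene models or pseudogenes, and 16 of these had fallen at P5. Gm3500 had an effect of 0.21 ± 0.35 at 9 weeks and −2.77 ± 0.43 at P5, Gm3194 one of 0.18 and −2.57, and Gm3558 one of 0.17 and −2.49. Where such models are near-identical copies, reads can be split or shared between them, so these values are uncertain and are not given as separate results.

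Targets of p53, which halts division or triggers death after DNA damage, gave negative differences in a few genes. Of 39 tested targets, 4 had a called negative difference (0.399% of all genes) and none a positive one. At P5 3 rose (0.203% of all genes) and none fell. At 9 weeks 6 rose and 3 fell, against 9.1% and 7.85% of all genes, so the share that fell was near the background. The median effect was 0.09 at P5 and −0.01 at 9 weeks, and the median difference −0.13. Ccng1, a cyclin induced by p53, was 6.07, 6.06 and 5.86 log2 CPM in P5 controls and 6.41, 6.55 and 6.62 in P5 Rnaseh2b. At 9 weeks it ran from 5.75 to 6.34 in controls (median 6.19) and from 6.04 to 6.30 in Rnaseh2b (median 6.14). The P5 groups were apart and the adult groups overlapped. It rose by 0.53 ± 0.10 at P5, its 9-week effect was −0.00 ± 0.08, and the difference was −0.53 ± 0.12 (limma, adjusted p = 0.0287).

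Gm16197, the non-coding RNA Trp53cor1 that lies beside Cdkn1a, was −4.10, −3.28 and −2.47 log2 CPM in P5 controls and −0.40, −0.02 and 0.36 in P5 Rnaseh2b. It ran from −1.12 to 0.12 in 9-week controls and from −0.08 to 0.50 in Rnaseh2b. It rose at P5 and its difference was −2.80 ± 0.64 (limma, adjusted p = 0.0369), at levels near 1 CPM or far below. Of the 6 compared P5 libraries 1 reached 1 CPM, so the gene passed the P5 filter through the other P5 groups. Its fold rests on how values near 0 are scaled, and the difference was −0.36 on FPKM plus 1. Ephx1, an epoxide hydrolase, was 2.75, 2.78 and 2.64 in P5 controls and 3.22, 3.32 and 3.32 in P5 Rnaseh2b, without overlap. Its 9-week ranges of 4.88 to 5.24 and 4.88 to 5.11 overlapped, and its difference was −0.65 ± 0.14 (limma, adjusted p = 0.0227). Cdkn1a, the cell cycle inhibitor p21, fell by 0.44 at 9 weeks and had an uncalled effect of 0.41 ± 0.17 at P5. Its difference of −0.85 ± 0.22 (limma, adjusted p = 0.0464) was lost with the P5 replicate number as a block (limma, adjusted p = 0.0662). Pmaip1, a trigger of apoptosis, rose by 2.18 ± 0.44 at P5 and had an effect of 0.66 ± 0.26 at 9 weeks, with an uncalled difference of −1.51 ± 0.51 (95% interval −2.56 to −0.46). Of the most expressed targets, Sesn1, Ei24 and Zmat3 had differences of −0.25, −0.17 and −0.43, not called. Among the 4 called targets 1 remained called without P5 control 2, 1 without P5 control 3, and 0 without P5 Rnaseh2b 2 or 3. Over the target list, P5 Rnaseh2b libraries had means of 3.69, 3.69 and 3.71 log2 CPM, above the controls at 3.34, 3.25 and 3.37. The medulla and pons list, of which both tables hold Slc6a2 and Tlx3, separated the P5 groups too, at −0.39, 1.55 and 2.55 in controls and 2.86, 3.53 and 3.69 in Rnaseh2b. With that list as a covariate at P5, with Xist as a covariate, or with only both groups in the P5 fit, 0 of the 4 p53 calls remained.

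Interferon-stimulated genes had like medians at both ages. The median effect of 32 tested members was 0.53 at 9 weeks and 0.48 at P5, with a median difference of 0.05. At 9 weeks 21 rose (9.1% of all genes) and Stat2 fell (7.85%), while at P5 Herc6 alone rose (0.203%). Positive effects were seen for 31 members at 9 weeks and 29 at P5. A call at one age and not at the other does not show unlike effects here, since the median standard error of a difference in this list was 0.27. Usp18, which restrains interferon signalling, rose by 1.04 at 9 weeks and had an effect of 0.33 at P5. Oasl2, an interferon-induced protein of the OAS family, rose by 0.78 and had an effect of 0.97 at P5. Ifit2 was the 1 member with a called difference (1.16% of all genes). It ran from 2.58 to 3.27 log2 CPM in 9-week controls (median 2.89) and from 3.17 to 3.82 in Rnaseh2b (median 3.50). P5 libraries gave 4.03, 4.44 and 3.88 in controls and 3.92, 3.74 and 3.705 in Rnaseh2b. The ranges overlapped at both ages. It rose by 0.55 ± 0.12 at 9 weeks, its P5 effect was −0.33 ± 0.13, and the difference was 0.88 ± 0.18 (limma, adjusted p = 0.0141). Without P5 control 2 it was 0.72 (limma, adjusted p = 0.0575) and without P5 Rnaseh2b 3 it was 0.84 (0.055). Its neighbours Ifit1 and Ifit3 had differences of 0.03 ± 0.59 and 0.67 ± 0.38, not called.

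**Figure D4:**
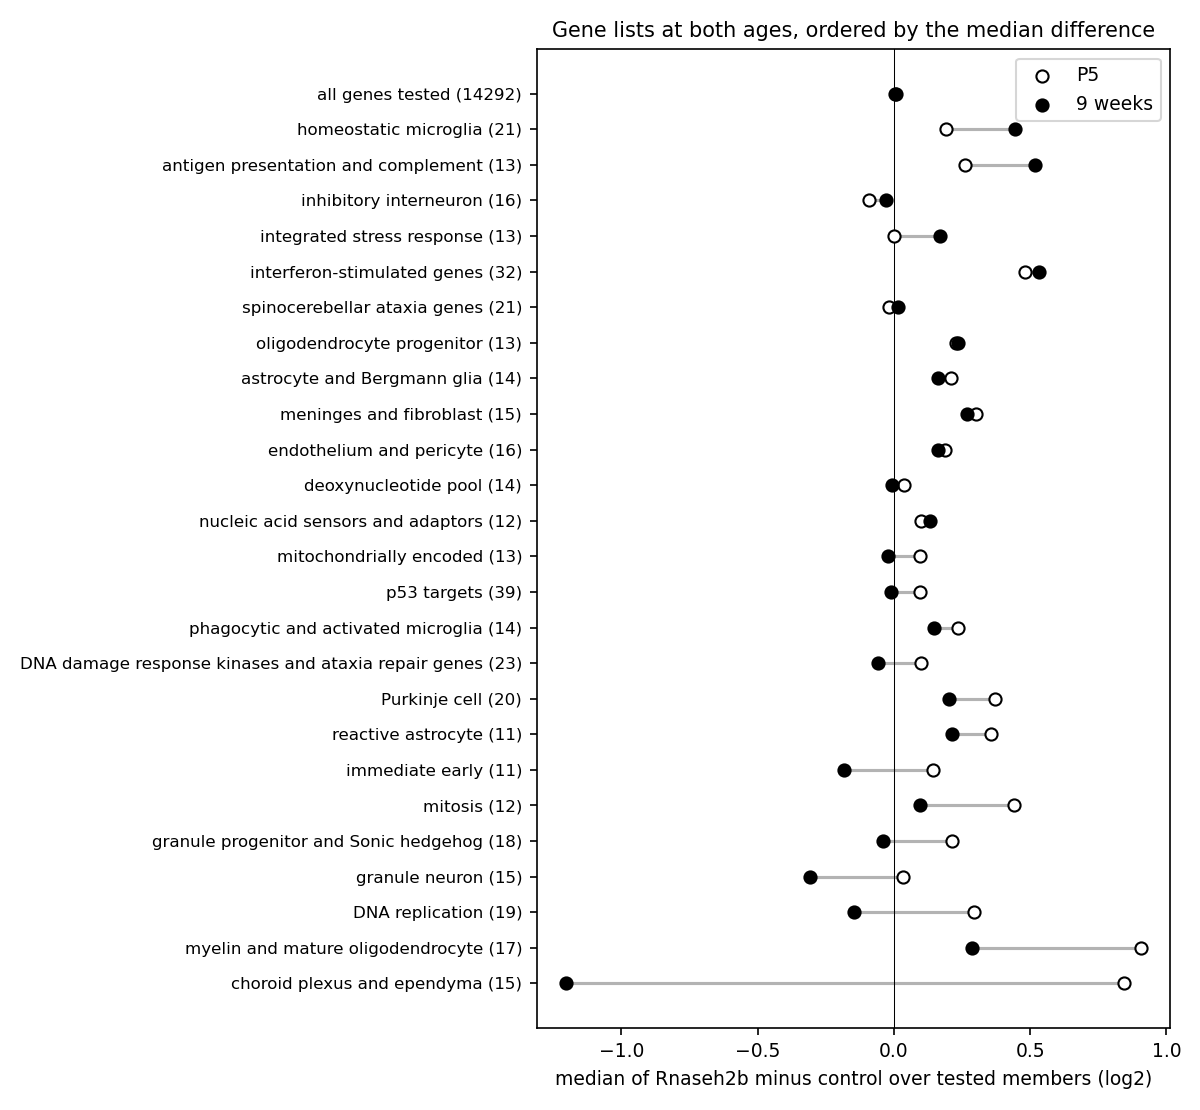
Median Rnaseh2b minus control effect (x axis, log2) over the tested members of each list with at least 10 tested members, at P5 (open) and 9 weeks (filled), with the number of members in brackets. Interferon-stimulated genes lie near 0.5 at both ages, granule neuron and DNA replication genes lie below 0 only at 9 weeks, and the choroid plexus list lies on opposite sides.

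The promoters of Ifit1, Ifit2 and Ifit3 are shown because all 3 genes rose at 9 weeks. Only Ifit2 had a called difference, but given the standard errors the 3 genes are not shown to be unlike. The stretches are the 250 bases before the annotated start from RefSeq (GRCm38.p6), all on the plus strand, 5′ to 3′, at chr19:34640639-34640888 for Ifit1, chr19:34550444-34550693 for Ifit2 (the first of its 2 starts) and chr19:34583279-34583528 for Ifit3. Capitals mark matches to GAAA, any 2 bases and GAAA, the core of the interferon-stimulated response element, or on the other strand to TTTC, any 2 bases and TTTC. Overlapping matches count separately.
Ifit1: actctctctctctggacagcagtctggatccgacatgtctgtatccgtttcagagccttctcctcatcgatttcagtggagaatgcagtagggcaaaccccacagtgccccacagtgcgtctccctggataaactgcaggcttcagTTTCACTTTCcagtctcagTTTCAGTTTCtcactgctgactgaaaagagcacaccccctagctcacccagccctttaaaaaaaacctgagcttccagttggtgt
Ifit2: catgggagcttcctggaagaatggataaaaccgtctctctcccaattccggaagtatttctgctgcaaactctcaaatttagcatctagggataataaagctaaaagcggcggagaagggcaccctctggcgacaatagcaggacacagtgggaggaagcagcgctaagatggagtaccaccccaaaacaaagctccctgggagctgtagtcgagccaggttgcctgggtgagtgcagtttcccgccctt
Ifit3: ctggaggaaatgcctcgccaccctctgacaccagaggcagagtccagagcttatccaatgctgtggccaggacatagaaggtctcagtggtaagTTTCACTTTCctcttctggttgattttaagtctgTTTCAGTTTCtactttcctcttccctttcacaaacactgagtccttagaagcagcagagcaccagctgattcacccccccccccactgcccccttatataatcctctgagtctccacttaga
The Ifit1 window held 2 matches, starting 104 and 85 bases before the start, and the Ifit3 window 2, at 156 and 122 bases. These letters are not in either of the 2 Ifit2 windows. Of the 40 list members, 30 had a promoter in the table and 12 of these (40%) held a match, against 3.46% of the 27025 genes in the table.

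The glial and immune lists given here had positive median effects at both ages and no called difference. At P5 only 0.434% of all genes were called, so a lack of P5 calls does not show a lack of effect. Of 21 homeostatic microglia genes, 13 rose at 9 weeks (9.1% of all genes), among them Tmem119 (0.74), Itgam (0.60) and Cx3cr1 (0.53), none was called at P5, and none had a called difference. Their median effect was 0.45 at 9 weeks and 0.19 at P5, and the median difference 0.30. Of 13 antigen presentation and complement genes, 9 rose at 9 weeks, including H2-K1 (0.57) and C4b (0.52), and none was called at P5 or for the difference. Their median effect was 0.52 at 9 weeks and 0.26 at P5, where all 13 effects were positive. Of 17 myelin genes, 6 rose at 9 weeks and none was called otherwise. Their median effect was 0.91 at P5 and 0.29 at 9 weeks, and the median difference −0.67. At P5 the list's mean level varied among the controls from 1.96 to 3.79 log2 CPM. Phagocytic and activated microglia genes had median effects of 0.24 at P5 and 0.15 at 9 weeks. For reactive astrocyte genes these were 0.36 and 0.21.

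Lists of dividing cells gave negative medians without calls. All 19 tested DNA replication genes had a negative difference, with a median of −0.45, and 0 were called. Their median effect was 0.29 at P5 and −0.15 at 9 weeks. The P5 controls had mean levels of 5.07, 3.82 and 4.69 for this list, and P5 Rnaseh2b libraries 4.90, 4.63 and 5.03, so control 2 lay below all others and the rest overlapped. For 18 granule progenitor and Sonic hedgehog genes the median difference was −0.34, none was called, and control 2 was again lowest (4.80 against 5.48 to 6.01 in the other 5). Among 14 genes of the deoxynucleotide pool, 1 had a called difference (1.16% of all genes). This was Dera, an aldolase that breaks down deoxyribose phosphate. Dera fell at P5 by 0.94 and had an effect of −0.07 ± 0.15 at 9 weeks, a difference of 0.87 ± 0.20 (limma, adjusted p = 0.0275). It was 0.80 without P5 control 2 (limma, adjusted p = 0.0976), and missed the threshold in 5 of 20 fits without 1 library. The choroid plexus and ependyma list had a median difference of −2.05 over 15 genes with none called, and its mean level ran from 0.78 to 3.94 log2 CPM within the 9-week Rnaseh2b group alone.

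The 6 P5 libraries held between 54 M and 91.1 M gene reads (median 69.6 M), and depth at 9 weeks is unknown. Xist was high in all 3 P5 controls (7.73 to 8.46 log2 CPM) but in only 1 of 3 P5 Rnaseh2b libraries, replicate 3 (7.81). Xist level and genotype thus cannot be fully told apart at P5. At 9 weeks Xist ran from 0.19 to 10.86 in controls and from 2.72 to 10.61 in Rnaseh2b. With Xist as a covariate at both ages 58 genes were called. Of the 12 largest differences each way, 0 positive and 6 negative ones remained called. The 9-week libraries carry codes in 2 ranges whose means the authors had equalised. Within codes AA11 to AA16 (3 libraries a group) 376 differences were called and within AA50 to AA58 (4 a group) 7 were. The Rnaseh2b difference was 1.07 and 1.39 in these ranges, that of Cdh15 −2.51 and −1.69, that of Sla −1.73 and −1.21, and that of Kit −1.28 and −0.55, which was not called in the second range (limma, adjusted p = 0.132). The part of Xist and of the code range in the results was not tested beyond these values.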

How the data were processed

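Whole mouse cerebellum was profiled at 9 weeks and P5 from stranded total RNA, extracted with TRIzol per the labels. The tools named in the submitters' processing notes are HTSeq, limma, STAR, BWA and Trim Galore, and the build is mm9; versions and the order of steps are not given in the sources used here. The authors deposited log2 CPM tables for each age, which were used as given, and FPKM tables, which served as a second scale. Their 9-week FPKM values held 30976 negative numbers, set to 0. Rows that name no gene (19.7% to 26.6% of reads in the 6 P5 libraries) and 23 names turned into dates were left out.

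Genes at 1 CPM in at least 7 libraries at 9 weeks and 3 at P5, counted over all 6 P5 groups, were kept. Each age was fitted by limma 3.58.1 (R 4.3.3, variance trend), at 9 weeks with the code range as a term and at P5 over all 6 groups. The difference of both coefficients was divided by the root of its summed squared errors, with Satterthwaite degrees of freedom and Benjamini-Hochberg adjustment over all genes. Whole reads were recovered for 99.994% of P5 values (within 0.01). The P28 effect came from a fit of the 4 P28 groups of poly-A libraries. On simulated data of 14292 genes the test of the difference recovered 42% of changes of 0.5 log2 units and 74% of changes of 1, and 8.72% of its calls were false, above the nominal 5%.

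Same-numbered P5 libraries deviated together (correlations 0.215, 0.504 and 0.164), so blocked values are printed where they change a call. At 9 weeks the numbers did not pair (−0.381 to 0.169). Named genes are the 3 subunits, the 12 largest called differences each way (mean of at least 1 log2 CPM, no gene models), up to 4 called members of each of 30 lists, the 4 most expressed p53 and interferon genes, and the 6 largest changes each way at each age. Members and lists were chosen with earlier results of these data known. Figures were drawn with matplotlib 3.10.9 in Python 3.11.15.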

Additional observations from a re-analysis of the deposited data

Results flagged for a closer look

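Of 116 groups of 7 libraries tested at 9 weeks, 11 held a library far from the rest of its group (Dixon's criterion, which chance meets in about 1 of 20 groups). Among Rnaseh2b libraries in log2 CPM, these were Rnaseh2a in replicate 6 at 3.88 (nearest other library 4.04), Rnaseh2c in replicate 7 at 3.367 (3.62), and Ntn1 in replicate 2 at 4.341 (4.717). Replicate 3 stood apart for Grin2c at 7.263 (7.521), Arhgef37 at 3.175 (3.655), Dnahc11 at 5.514 (5.881) and Gbp7 at 3.56 (3.359). Among controls they were Ccng1 in replicate 4 at 5.75 (6.128), Sesn1 in replicate 3 at 6.797 (6.566), and replicate 5 for Stat2 at 5.333 (5.618) and Col14a1 at 1.023 (0.3381).

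The effect of the genotype was called different between the ages in 35 named genes, most of them named because of that call. The test compared the coefficients of separate limma fits at each age. In 1 limma fit over both ages, 13 of the 35 were called. The negative values were −3.045 for Myl1, −2.803 for Gm16197, −2.342 for Galntl2, −2.042 for Cdh15, −1.429 for Sla, −1.407 for Emilin3, −1.249 for Grin2c, −1.111 for Arhgef37, −0.9857 for Gprc5c, −0.9532 for Dnahc11, −0.9499 for Slit3, −0.9251 for Ntn1, −0.8792 for Lamb1, −0.8787 for Prkcd, −0.8614 for Kit, −0.8534 for Cdkn1a, −0.8196 for Adamts15, −0.6525 for Ephx1 and −0.5327 for Ccng1. The positive values were 0.8278 for Lhx5, 0.8748 for Dera, 0.8837 for Ifit2, 1.251 for Rnaseh2b, 1.423 for Hs3st4, 1.454 for Foxp2, 1.461 for Zfp92, 1.492 for Fibcd1, 1.507 for Ndst4, 1.515 for Slit1, 1.522 for Lmo3, 1.535 for Cbln2, 1.695 for Camkv, 1.926 for Ngb, 2.155 for Tal1 and 2.318 for Accn4.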

How the results depend on the processing

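All 35 named genes with a called difference kept its direction under the 40 alternatives, and 884 of their 1390 values stayed past the threshold. The count of called differences, 166 as reported, was less stable. It was 30 in 1 limma fit over both tables, 29 with only the control and Rnaseh2b groups in the P5 fit, 376 within codes AA11 to AA16, 7 within AA50 to AA58, 104 at 4 CPM, 106 and 95 on FPKM plus 0.1 and plus 1 (52 positive and 43 negative in the latter), and 91 after quantile normalisation. With covariates it was 58 for Xist, 86 for the midbrain and 105 for the medulla and pons list at P5, and, chosen after seeing the data, 7 and 60 for these lists at both ages. It was 107 without P5 control 2 and P5 Atm 1. Leaving out 1 library gave 19 (P5 Rnaseh2b 3) to 333 (P5 control 1), and 46 without P5 control 2.

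The 9-week count of 2423 became 1093 within AA11 to AA16, 92 within AA50 to AA58, 8 with the midbrain and 625 with the medulla and pons list, and 1333 to 2569 without 1 library (lowest without control 3). The P5 count of 62 became 0 by limma with only both groups fitted (769 genes at unadjusted p below 0.05), 16 at 4 CPM, 33 by voom, 21 with Xist, 3 with the midbrain list at P5 or at both ages, 99 without control 2 and Atm 1, and 1 (without control 2 or Rnaseh2b 3) to 206 (without control 1) on leaving out 1 library. The cause of these shifts was not tested. With the replicate number as a block at both ages the counts were 129 for the difference and 1443 at 9 weeks, where the numbers did not pair. With the block at P5 alone, chosen after seeing the data, 144 differences were called. It changed no other named call than the 8 printed with their genes. The 3 libraries a group at P5 limit the precision of the difference.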
